A study of Mus musculus with 3 samples.

Results

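Natriuretic peptide genes and a set of genes known from the stretched or failing heart were examined for binding by FOG2 in the embryonic ventricle. The 9 genes were Nppa, Nppb, Ankrd1, Fhl1, Fhl2, Xirp2, Rcan1, Ccn2 and Gdf15. A peak was assigned to one of them where that gene's body, among all protein-coding gene bodies, lay nearest to the peak summit and within 100 kb of it. Of 6166 deposited peaks, 11 were assigned in this way, to 5 of the 9 genes.

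The Zfpm2 gene encodes FOG2, a zinc finger cofactor of GATA factors. Its occupancy was mapped by streptavidin pulldown in heart ventricles of mouse embryos at E12.5, with 2 pulldown libraries and 1 input library. Per the labels' protocols, the embryos were homozygous for the tagged allele Fog2flbio and for Rosa26BirA, a biotin ligase made from a ubiquitously active locus, so that FOG2 was biotinylated wherever it was expressed. The genotype label reads WT and the antibody label FOG2, which departs from that protocol. The deposited list also has FLAG in its name, so capture by streptavidin is taken here from the protocol. Input chromatin is described by the same protocol and genotype label as the pulldown. Each biological replicate combined about 20 ventricles, so the starting chromatin mixed the cell types of the ventricle and no value belongs to 1 embryo. A pulldown from embryos with BirA and untagged FOG2 was not analysed here.

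The replicates had been pooled, per the name of the deposited list. Each peak therefore has a single fold over control, with no replicate spread, and no test between conditions was possible. Fold below is the linear pulldown to control ratio that the authors deposited for each summit. Fragments are the pulldown fragments at the summit recovered from the deposited values, with exact 95% Poisson intervals that cover counting error only. Positions are on mm10. Expression was not measured in these libraries, so nothing here shows which of the genes were active.

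The natriuretic peptides, encoded by Nppa and Nppb, are hormones that cardiac muscle releases when stretched. Both are transcribed in the embryonic ventricle, decline there after birth and return in heart failure, which makes them the standard markers of the reactivated fetal gene programme. Ankrd1 encodes a titin-binding ankyrin repeat protein, and Fhl1, Fhl2 and Xirp2 encode proteins of the sarcomere or the intercalated disc. Rcan1 encodes an inhibitor of the phosphatase calcineurin, Ccn2 a secreted matrix protein, and Gdf15 a secreted member of the transforming growth factor family that circulates at raised levels in heart failure.

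Ankrd1 was the only one of the 9 genes with a peak across a start site. RefSeq promoter windows, which run from 250 bases before to 50 after a start site, were found for 8 of the 9 genes and numbered 12, because Fhl1, Fhl2, Rcan1 and Gdf15 have 2 each. Ccn2 has no entry. A peak shared at least 1 base with 1 of these 12 windows, against 0.423% of the 21044 windows of all protein-coding genes. The 3 windows below were chosen to set the occupied Ankrd1 start site beside the unoccupied start sites of the natriuretic peptide genes. Each is written along its gene's strand, with motif matches in capitals, those on the opposite strand appearing as the reverse complement. The motifs searched were the GATA core GATAA, which also lies within the longer GATAAG, the T-box core GGTGTG, the TEAD site CATTCC and the NKX2-5 core AAGTG.
Ankrd1, chr19:36119795-36120094, minus strand, GRCm38.p6: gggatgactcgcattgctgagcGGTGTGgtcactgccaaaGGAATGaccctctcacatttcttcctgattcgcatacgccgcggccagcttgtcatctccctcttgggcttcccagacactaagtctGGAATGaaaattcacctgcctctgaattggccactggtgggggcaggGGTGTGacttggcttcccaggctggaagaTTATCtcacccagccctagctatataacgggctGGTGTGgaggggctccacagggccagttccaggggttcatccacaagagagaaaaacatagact
Nppb, chr4:147985650-147985949, plus strand, GRCm38.p6: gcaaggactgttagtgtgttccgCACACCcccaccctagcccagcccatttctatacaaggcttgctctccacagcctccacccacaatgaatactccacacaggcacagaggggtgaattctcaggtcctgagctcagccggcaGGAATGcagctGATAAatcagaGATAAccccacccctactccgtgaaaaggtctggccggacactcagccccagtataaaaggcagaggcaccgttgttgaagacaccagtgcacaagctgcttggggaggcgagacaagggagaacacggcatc
Nppa, chr4:148000472-148000771, plus strand, GRCm38.p6: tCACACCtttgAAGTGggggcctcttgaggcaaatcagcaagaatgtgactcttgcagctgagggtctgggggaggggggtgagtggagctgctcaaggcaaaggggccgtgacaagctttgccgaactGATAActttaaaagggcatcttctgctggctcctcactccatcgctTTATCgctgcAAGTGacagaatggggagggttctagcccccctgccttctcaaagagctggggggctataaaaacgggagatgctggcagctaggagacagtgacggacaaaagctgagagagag

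In the Ankrd1 window GGTGTG matched at 3 places and CATTCC at 2, and GATAA matched once, on the reverse strand, 47 to 43 bases before the start site. AAGTG had no match there. The Nppa and Nppb windows held 2 GATAA matches each although no peak lay at either start site. Nppa had in addition 2 AAGTG matches and 1 GGTGTG match, while Nppb had 1 CATTCC and 1 GGTGTG match. No 2 of these matches overlapped within any of the 3 windows. The longer motif GATAAG was present in 1 of the 12 windows, that of the upstream Fhl2 start site, against 6.95% of all promoter windows. GATAA, added after the sequences were seen, was present in 5 of the 12 windows, against 22.5% of all. GGTGTG was present in 5 windows (18.3% of all), CATTCC in 3 (13.5%) and AAGTG in 3 (45.2%).

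The CArG box, the site of serum response factor, was present in 3 of the 12 windows, against 1.54% of all promoter windows. They were both windows of Fhl2 and 1 of Fhl1, and none of them was reached by a peak. Among the 89 promoter windows with a peak anywhere in the genome, GATAAG was present in 18.0%, against 6.95% of all windows, and GATAA in 38.2%, against 22.5%. CATTCC was present in 19.1% of these 89, against 13.5% of all windows, AAGTG in 48.3%, against 45.2%, GGTGTG in 18.0%, against 18.3%, and the CArG box in 2.25%, against 1.54%. A match is a string of letters and shows neither binding nor its absence.

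Counted by gene, 5 of the 9 had at least 1 summit, against 13.6% of all 21627 protein-coding genes on the autosomes and the X chromosome. The 9 genes were chosen with results of these data known, so this count is a description. It depends on how the peak list is restricted: 3 of the 9 had a summit when −log10 q had to reach 5 (10.0% of all genes), among the stronger 50% of peaks (8.01%), and within 10 kb of the gene body (10.0%). The strongest peaks of the 5 genes had a median fold of 7.97, against 6.93 over the 2938 genes with a summit. With so few genes this median moved to either side: it was 6.02 within 10 kb (6.88 over all genes with a summit there) and 12.4 both with −log10 q at or above 5 (8.10 over all) and among the stronger 50% of peaks (8.82). Over their 11 summits the median fold was 5.67, against 6.39 for all peaks, and the median depth was 12 fragments in each. Of the 11, 4 were above the median fold of all peaks and 7 at or below it. A fold of 10 or more was reached by 2 of the 11, the start-site peak of Ankrd1 and an upstream peak of Fhl2, against 16.9% of all peaks.

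**Figure D1:**
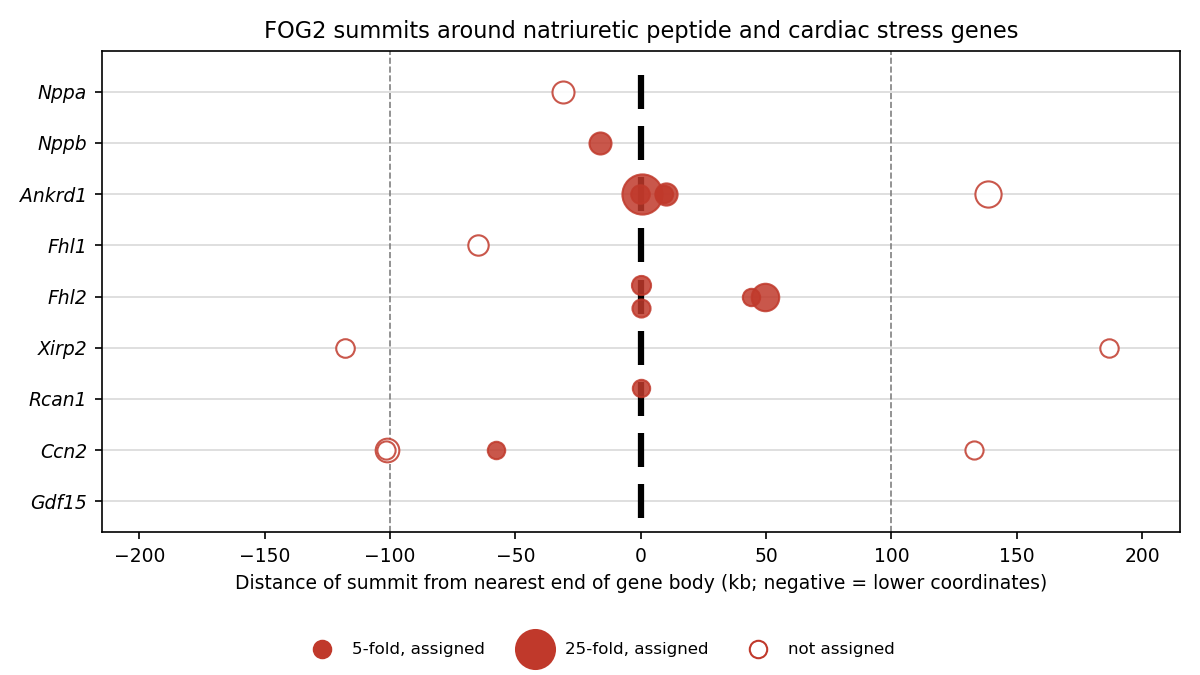
Positions of FOG2 summits around the 9 genes. The x axis gives the distance in kb from the nearest end of the gene body (black bar, drawn at 0 whatever its length, with summits inside the gene drawn on it), circle area scales with fold over control, filled circles are assigned summits, open circles are summits not assigned to the gene, and dashed lines mark 100 kb. Ankrd1 and Fhl2 each have 4 filled circles, the open circle of Nppa is the same peak as the filled circle of Nppb, and Gdf15 has no circle within 200 kb.

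Nppb, the B-type natriuretic peptide gene (chromosome 4, 147985786 to 147987205), had a single summit. The peak spanned 147969296 to 147969716 and its summit lay 16.2 kb upstream of the gene body, at 7.97-fold with 12 fragments (6.20 to 21.0) over a control level of 0.631. It stood at the 69.3rd percentile of all peaks by fold and at the 51.9th by fragments, and its width of 421 bp at the 84.9th. Its interval spans the median depth of the list, so its rank is not resolved at this depth.

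Nppa, the atrial natriuretic peptide gene (chromosome 4, 148000722 to 148002074), had no assigned summit. It lies 13.5 kb beyond Nppb, and the Nppb peak was also its closest, 31.2 kb upstream. Both genes lie on the plus strand, so the shared peak is upstream of the pair. The next summit on the chromosome was 877 kb away, inside Casz1. Nppa has Nppb on one side and Clcn6 2.19 kb away on the other, which leaves it a territory of 10 kb, the stretch nearer to it than to any other protein-coding gene. At the mean density of summits in gene territories, 2.52 per Mb, 10 kb would hold 0.0252 summits and the 27 kb of Nppb 0.068. With the peak credited to every gene within 100 kb instead of the nearest alone, Nppa had this 1 summit too. Assignment by distance does not show on which gene a site acts.

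Ankrd1 (chromosome 19, 36111965 to 36119844, minus strand) encodes a nuclear and sarcomeric protein that is induced by load and by YAP in heart muscle, and it had the strongest peak of the 9 genes. That peak spanned 36119606 to 36121176, from 1332 bases before to 238 bases after the start site, with its summit 397 bases before it. It was 26.5-fold over control, with 74 fragments (58.1 to 92.9) over a control level of 1.83. The control level was 3.10 times the lowest level in the list, and the fold was taken over that level. Whether input was raised above background at this site was not tested. At 1571 bp the peak ranked 18th of all 6166 by width, 31st by fragments and 82nd by fold. Among the 82 peaks that share a base with a promoter window it was the third strongest, where the median was 6.04-fold. The gene stood 55th of the 2938 genes with a summit by its strongest fold.

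The other 3 summits of Ankrd1 were weaker. The summits 9.42 and 10.1 kb upstream lay 658 bases apart. The nearer was 4.92-fold with 9 fragments (4.12 to 17.1), and the farther 8.10-fold with 18 fragments (10.7 to 28.4). The last, 175 bases past the 3′ end of the gene, was 5.67-fold with 8 fragments (3.45 to 15.8), at the lowest control level of the list. The interval of the start-site peak overlapped none of these 3, while the intervals of the 3 overlapped each other.

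Fhl2 (chromosome 1, 43123071 to 43198343, minus strand) encodes a LIM domain protein that binds titin and modulates transcription factors, and it had 4 summits in 2 pairs. The upstream pair lay 49.5 and 43.8 kb beyond the gene body, 5.63 kb apart. The farther of them, at 43247575 to 43247909, was the strongest, at 12.4-fold with 23 fragments (14.6 to 34.5), the 90.4th percentile by fold. The nearer was 4.96-fold with 13 fragments (6.92 to 22.2). Inside the gene, summits lay 4.01 and 8.87 kb downstream of the second start site, at 5.38-fold with 9 fragments (4.12 to 17.1) and 6.02-fold with 10 fragments (4.80 to 18.4). These counting intervals all overlapped. No peak reached either Fhl2 promoter window, the closest summits being 4.01 and 36.8 kb from the start sites. When genes of every biotype competed for the summits, the upstream pair went to the long noncoding RNA gene Gm29040, which lies 0.348 kb from the strongest summit.

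**Figure D2:**
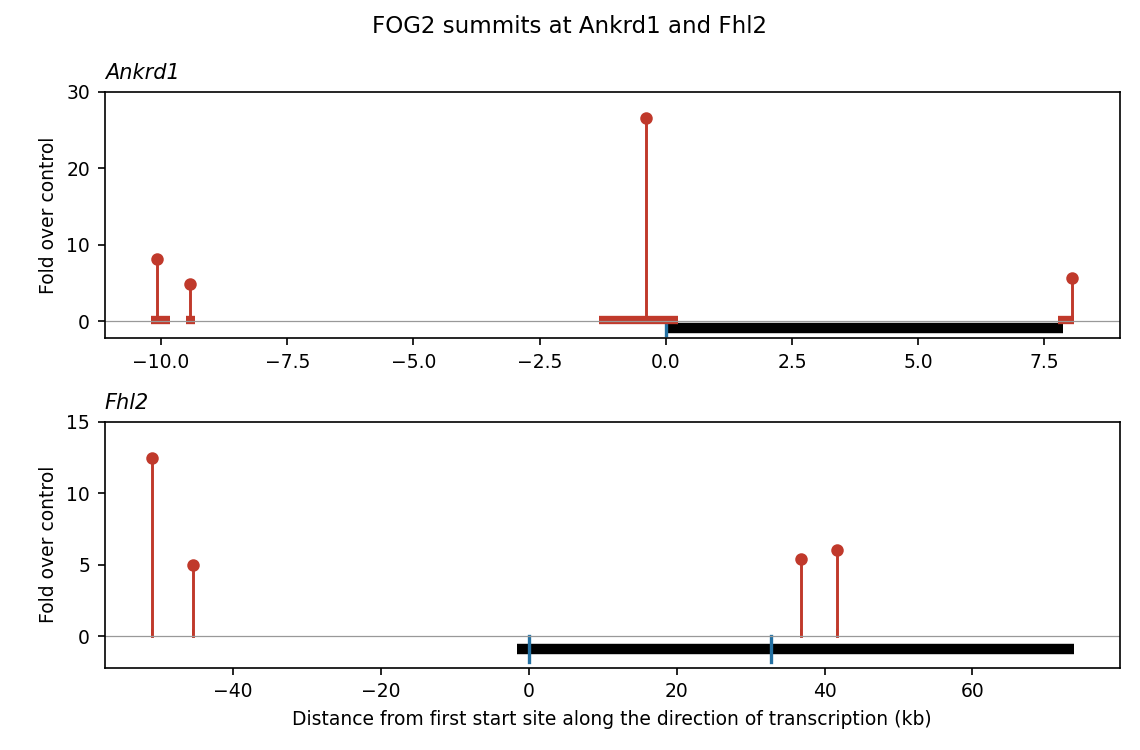
FOG2 summits at Ankrd1 (top) and Fhl2 (bottom). The x axis gives distance in kb from the first start site along the direction of transcription, the y axis fold over control, red lines and points the summits with peak widths drawn at the base, the black bar the gene body and blue ticks the RefSeq start sites. At Ankrd1 the 26.5-fold peak covers the start site, whereas at Fhl2 the strongest summit, at 12.4-fold, lies upstream of the gene and the start sites are free of peaks.

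Having 4 or more summits was uncommon, at 0.892% of protein-coding genes, and Ankrd1 and Fhl2 both did. The count of 4 depended on the weaker and more distant summits. With −log10 q at or above 5 Ankrd1 and Fhl2 had 2 summits each, and 0.416% of genes had 4 or more. Among the stronger 50% of peaks Ankrd1 had 2 and Fhl2 had 1, and 0.264% of genes had 4 or more. Within 10 kb Ankrd1 had 3 and Fhl2 had 2, and 0.583% of genes had 4 or more. Fhl2 also had 2 within 20 kb, and 2 when genes of every biotype competed, while Ankrd1 had 4 under both. The share of genes with 4 or more was 0.615% within 20 kb and 0.337% with every biotype. Genes with large territories collect more summits. The territory of Ankrd1 was 111 kb, which at the mean density would hold 0.28 summits, and that of Fhl2 was 179 kb, which would hold 0.451. Among the 16497 genes with no larger a territory than Ankrd1, 10 had 4 or more summits, Ankrd1 included. Among the 19082 with no larger a territory than Fhl2, 23 did, Fhl2 included. Of the 11 summits of the 9 genes, 8 had another summit within 10 kb, against 18.6% of all summits, and all 8 were those of Ankrd1 and Fhl2.

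Rcan1 (chromosome 16, 92391951 to 92466169, minus strand) had 1 summit, inside the gene. RefSeq gives it a distal and an internal start site, and the internal one is known to respond to NFAT factors, the targets of calcineurin. The peak at 92428472 to 92428906 lay between them, 37.4 kb downstream of the distal start site and 28.7 kb upstream of the internal one. It was 4.96-fold with 13 fragments (6.92 to 22.2) over a control level of 1.83, the 13.7th percentile by fold but the 58.7th by fragments. A long noncoding RNA gene, Gm41498, overlaps the same position. Exons and introns are not given in the annotation used here.

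Ccn2 (chromosome 10, 24595442 to 24598683), which encodes connective tissue growth factor and is a textbook target of YAP and TEAD, had 1 summit under the 100 kb limit. The peak at 24537673 to 24537842 lay 57.7 kb outside the gene and was the shallowest of the 11, at 5.0-fold with 7 fragments (2.81 to 14.4), the 17.7th percentile by fold and the 5.78th by fragments. Just beyond the limit, on the same side, lay a deeper peak at 24493988 to 24494363, 101 kb from the gene. It was 9.20-fold with 25 fragments (16.2 to 36.9) over a control level of 1.83. A neighbouring summit at 102 kb was 5.47-fold with 9 fragments (4.12 to 17.1). Ccn2 was the nearest protein-coding gene to both. The limit thus decided whether Ccn2 was described by its shallowest or its deepest neighbouring peak. The 57.7 kb summit and those at 101 and 102 kb all lie within the long noncoding RNA gene Gm15270. The 57.7 kb summit was credited to Gm15270 when genes of every biotype competed.

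Fhl1, Xirp2 and Gdf15 had no assigned summit. Fhl1 (chromosome X, 56731209 to 56793346) encodes a LIM domain protein of the sarcomere related to Fhl2. Its closest summit lay 64.8 kb away on the upstream side and was not assigned to it, because another gene body was nearer. The next was 485 kb away. Xirp2 (chromosome 2, 67446000 to 67526620) encodes an actin-binding protein of the intercalated disc. Its closest summit lay 118 kb upstream, just outside the limit, at 5.67-fold with 8 fragments (3.45 to 15.8) and at the lowest control level. Xirp2 was the nearest protein-coding gene to that summit, and its 201 kb territory would hold 0.506 summits at the mean density. Gdf15 (chromosome 8, 70629393 to 70632470) had its closest summit 1675 kb away. That summit was 7.02-fold with 14 fragments (7.65 to 23.5) and was assigned to Lpl. Its own territory was 14 kb. A gene without a listed peak may still be bound below the authors' threshold, since the list holds called peaks only.

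**Figure D3:**
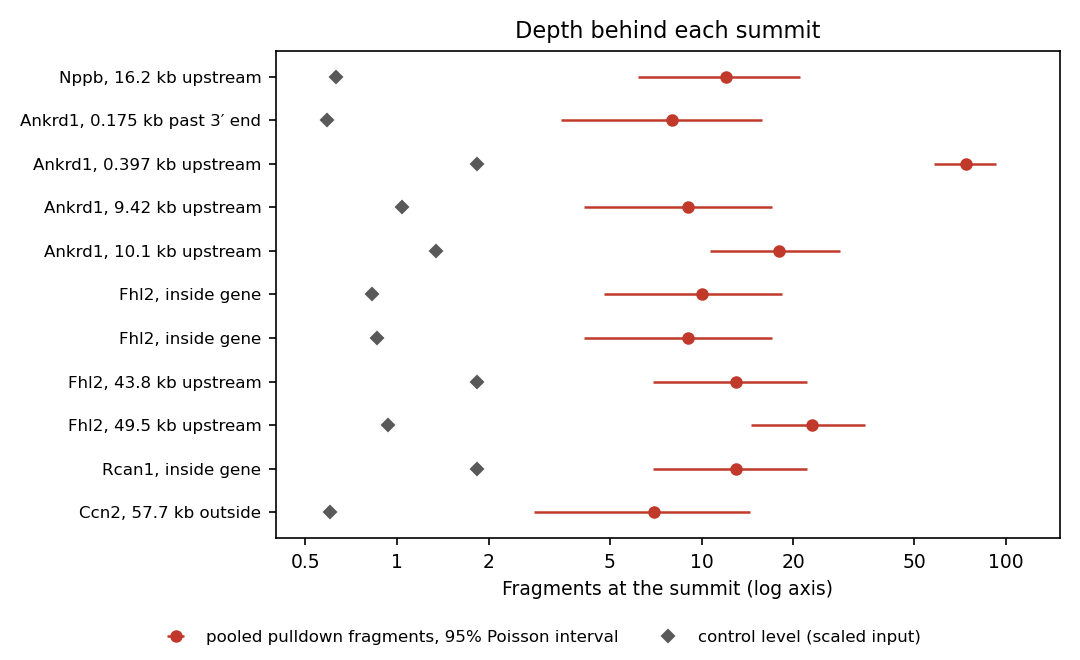
Depth behind each of the 11 assigned summits. Red points give pooled pulldown fragments at the summit with 95% Poisson intervals, grey diamonds the control level from scaled input, both on a log axis. The Ankrd1 summit 0.397 kb upstream stands at 74 fragments, and the other 10 lie between 7 and 23.

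Control levels at the 11 summits ranged from 0.588 to 1.83. The level of 1.83 occurred at 3 of them, the Ankrd1 start site, the nearer upstream summit of Fhl2, and Rcan1. Fold and depth therefore ranked these summits differently. Rcan1 and the nearer upstream summit of Fhl2 each had 13 fragments and were 4.96-fold, while Nppb had 12 fragments and was 7.97-fold. Their counting intervals overlapped almost entirely, and these intervals leave out the error of the control level.

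**Figure D4:**
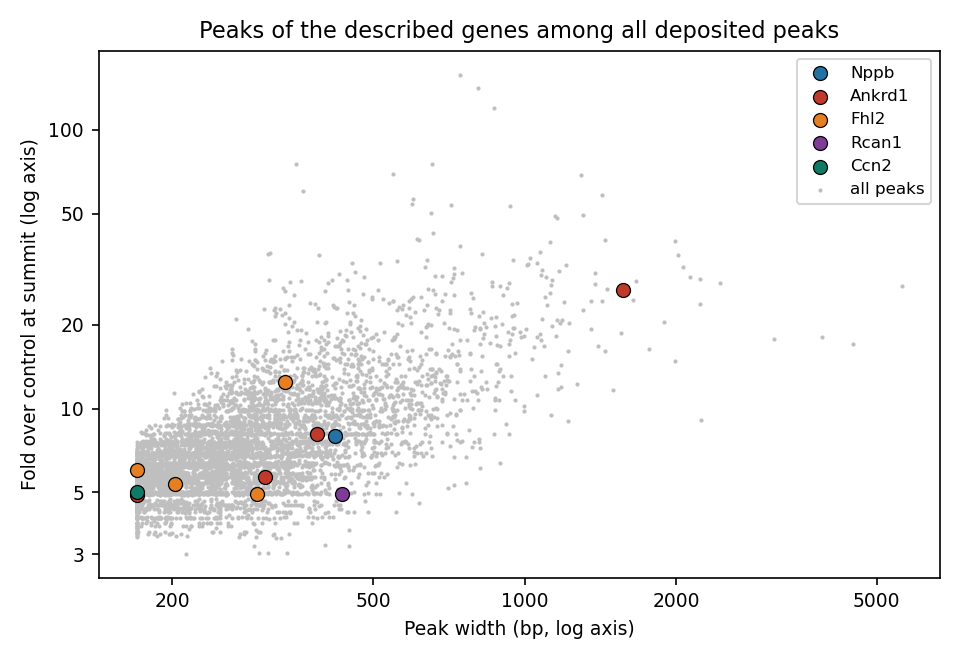
Width and fold of the 11 peaks of the described genes (coloured, black outline) among all 6166 deposited peaks (grey), with peak width in bp and fold over control on log axes. The Ankrd1 start-site peak, at 1571 bp and 26.5-fold, lies among the widest peaks of the list, and the other 10 lie within the main cloud.

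Genes related to these 9 by pathway, family or stress response were taken from 5 lists, chosen with earlier results of these data known. Of the 64 genes in them, 25 had a summit (39.1%), and their strongest peaks had a median fold of 7.66. Their territories would hold 20.4 summits at the mean density, and 46 were found. As for the 9 genes, these counts stand beside the 13.6% of all genes with a summit and carry no test.

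The list of natriuretic peptide processing and signalling had 5 of 12 genes with a summit (41.7%) and 10 summits, where its territories would hold 7.43. The strongest was at Corin, the protease that cuts the atrial natriuretic peptide precursor, where a peak inside the gene was 12.4-fold and rested on 23 fragments (14.6 to 34.5). Npr3, the clearance receptor, had a summit 77.6 kb outside at 8.64-fold (13 fragments, 6.92 to 22.2). Prkg1, the kinase activated by cyclic GMP, reached 7.41-fold inside the gene, and Mme, which encodes the peptide-degrading enzyme neprilysin, 6.88-fold at 65.6 kb. Pcsk6, which encodes a convertase that activates corin, had a summit of 4.60-fold. The signalling receptor genes Npr1 and Npr2, the C-type peptide gene Nppc and the convertase gene Furin had none, and neither did Pde2a and Pde5a. Osr1 also had none, and it was counted among the 12 although it was listed in error.

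Of close relatives of the 9 genes 2 of 15 had a summit (13.3%), a share close to that of all genes. Ccn1, the relative of Ccn2 that YAP also drives, had 3 summits, the strongest 41.1 kb away at 11.3-fold on 17 fragments (9.90 to 27.2). Rcan2 had 1 within its body, 9.79-fold over control on 25 fragments (16.2 to 36.9). The relatives of Ankrd1 (Ankrd2 and Ankrd23), of the Fhl genes (Fhl3, Fhl4 and Fhl5) and of Xirp2 (Xirp1) had no summit, and neither did Rcan3, Ccn3, Ccn4, Ccn5, Ccn6, Gdf11 and Mstn. The 15 territories together would hold 2.79 summits, and 4 were found.

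Among calcineurin and NFAT genes 3 of 10 had a summit (30%), 1 or 2 each, and 4 summits were found where the territories would hold 3.41. Ppp3ca, which encodes a catalytic subunit of calcineurin, reached 8.53-fold (13 fragments, 6.92 to 22.2). Nfatc3 reached 8.02-fold (12 fragments) and Nfatc1 5.18-fold (9 fragments), and these strongest summits all lay inside the genes. Ppp3cb, Ppp3cc, Ppp3r1, Nfatc2, Nfatc4, Cabin1 and Akap5 had none. In the list of YAP, TAZ and TEAD genes 6 of 10 had a summit (60.0%), and 9 summits were found where the territories would hold 2.69. Yap1 itself was highest, at 20.9-fold inside the gene, with 37 fragments (26.1 to 51.0). The others ranged from 6.30-fold at Amotl2 to 8.42-fold at Vgll4. Lats2 was at 7.11-fold, Tead1 at 6.93-fold and Wwtr1, the gene of TAZ, at 6.74-fold. The strongest summits of Vgll4 and Lats2 lay inside the genes. Those of Wwtr1, Tead1 and Amotl2 lay outside, at 18.9, 23 and 40.6 kb. Lats1, Tead2, Tead3 and Tead4 had none.

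In the list of other stress and hypertrophy genes 9 of 17 had a summit (52.9%) and 19 summits were found, where the territories would hold 4.02. Tnc, the gene of the matrix protein tenascin C, was highest, with a summit 11.3 kb from its body at 16.2-fold on 35 fragments (24.4 to 48.7). Cryab, a small heat shock protein gene, reached 11.6-fold inside the gene, Nebl, the nebulette gene, 10.3-fold, and Actn2, the gene of sarcomeric alpha-actinin, 9.20-fold. Csrp3, which encodes the muscle LIM protein, had 4 summits in a territory of 29 kb, the strongest at 7.28-fold with 12 fragments (6.20 to 21.0). Thbs1, Myh7, Tcap and Postn also had summits, from 4.94- to 7.66-fold. Acta1, a further marker of the fetal programme, had none, and neither did Spp1, Lgals3, Timp1, Hspb7, Nrap and Gfral.

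**Figure D5:**
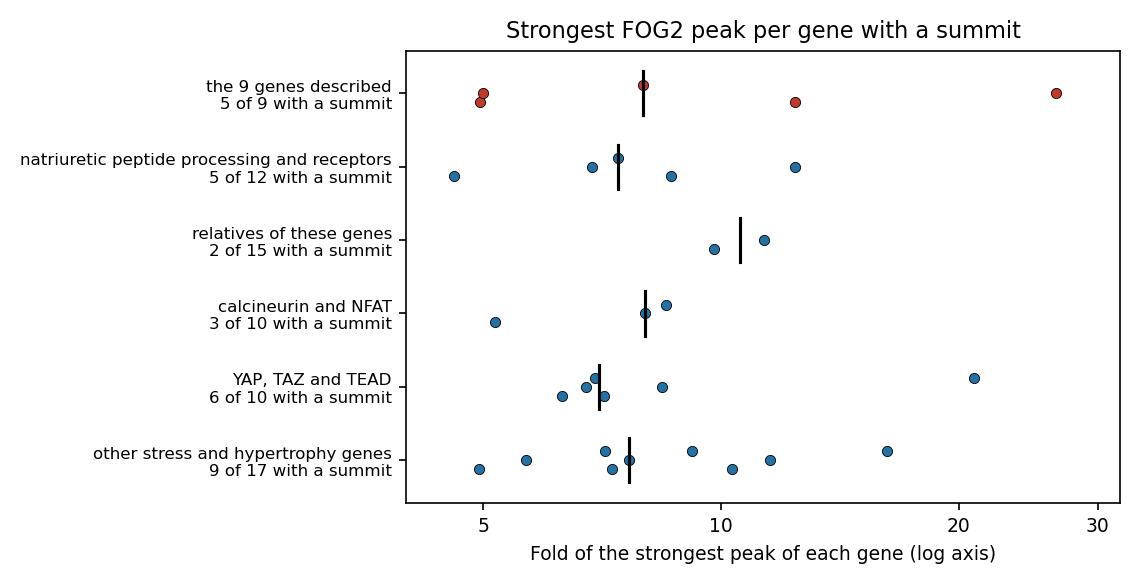
Fold of the strongest FOG2 peak of each gene with a summit, on a log axis, for the 9 genes described (red) and 5 lists of related genes (blue), with vertical lines at the medians and the number of genes with a summit beside each name. Ankrd1 at 26.5-fold is the highest point of the panel, followed by Yap1 at 20.9-fold and Tnc at 16.2-fold.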

How the data were processed

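FOG2 pulldown chromatin from E12.5 ventricles (2 libraries, with 1 input library) was analysed through the 6166 peaks that the authors deposited in 1 list. Replicates had been pooled and blacklisted regions removed, per the deposited file's name. Bowtie2 2.3.2, SAMtools 1.5, Picard, MACS2 2.1.1 and mm10 appear in the submitters' processing notes, with no settings. In the deposited file the fold is a linear ratio at the summit, and −log10 p and −log10 q are given for that same summit.

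Fragments and control levels were solved from fold and −log10 p as a Poisson tail with 1 added to both sides of the ratio. A whole number fitted every peak within 0.001 (largest misfit 0.000148), in 53 peaks not uniquely, none of them among the 11 described. The depth of each library is unknown here. Summits were assigned to the nearest of 21627 RefSeq gene bodies (GRCm38.p6) within 100 kb, ties going to all tied genes. Start sites, strands and promoter sequences came from RefSeq windows of 300 bases for the same assembly. Territories were measured on a 1 kb grid.

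The genes and lists were chosen with earlier results of these data known. All 9 genes and all 64 list genes were matched, and the text names every one of the 9 with all its summits, its closest summit where it has none, and up to 4 list genes of highest fold, others being named by presence of a summit alone or with their fold. Results for some neighbouring and list genes are not reported here. Osr1 was listed among natriuretic peptide genes in error. Python 3.11.15, NumPy 2.4.6, pandas 2.3.3, SciPy 1.17.1 and matplotlib 3.10.9 were used, and assignment and fragment recovery were checked on simulated data. No test was run, since 1 pooled list has no replicates. The alternatives were narrower and wider windows, stricter peak lists, other assignment rules and other measures of strength.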

Additional observations from a re-analysis of the deposited data

How the results depend on the processing

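The counts of genes and of summits moved by more than 1.5 times under 3 of 11 alternatives. Within 10 kb of gene bodies 3 of the 9 genes and 6 summits were left, with −log10 q at or above 5 it was 3 genes and 5 summits, and in the stronger 50% of peaks 3 genes and 4 summits. Under the other 8 the genes numbered 4 to 7 and the summits 8 to 14. The count of 7 arose only with every gene within 100 kb credited, where 33.3% of all protein-coding genes had a summit. When genes of any biotype competed, 4 of the 9 had a summit, beside 8.6% of genes of any biotype. The 25 list genes with a summit became 16 when genes of any biotype competed, beside that same 8.6%. Otherwise they ranged from 17 within 10 kb (10% of all protein-coding genes) to 37 with every gene within 100 kb credited (33.3%). The median strongest fold of 7.97 became 12.4 with −log10 q at or above 5 and in the stronger 50% of peaks, and ranged from 6.02 to 10.2 under the other 9. Ankrd1 had 2 to 4 summits and Fhl2 1 to 4. Promoter windows with a GATA motif numbered 1 with GATAAG and 5 with GATAA. Ranked by recovered fragments instead of fold, the strongest peak of Rcan1 moved from the 13.7th to the 58.7th percentile (28.7th by −log10 q), that of Nppb from the 69.3rd to the 51.9th (65.6th), that of Ccn2 from the 17.7th to the 5.78th (12.3rd), that of Fhl2 from the 90.4th to the 88.5th (90.0th) and that of Ankrd1 from the 98.7th to the 99.5th (99.3rd). The 200 kb window, which added Xirp2, and the shorter GATA motif were chosen after seeing the data. No paired analysis was possible because the replicates were pooled before deposit, and for the same reason no replicate could be left out. Depth limits all summits but the one at the Ankrd1 start site, since the others rest on 23 fragments or fewer.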
